A study of Homo sapiens with 6 samples.

Results

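CD36, its ligand thrombospondin 1 (THBS1) and CD47, the other main receptor of that ligand, were followed as 3 genes of 60612 in a total RNA sequencing experiment in KO52 cells. The 3 genes were taken by symbol from the gene IDs of the count tables, and all 3 passed the filter on low counts, as did 15395 genes in all. They were chosen by their measured differences between the groups in these same libraries (CD36 and THBS1) and as a receptor of the same ligand (CD47), so the levels and differences of all 3 are given as a description and carry no test.

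KO52 is an established human acute myeloid leukemia line with a CEBPA double mutant genotype. Every group carried a lentiviral vector switched on by doxycycline, and the study sorted cells positive for the green fluorescent protein that the vectors encode. The control vector was empty (EV), while the others expressed a dominant negative form of C/EBP (dnCEBP) or of FOS (dnFOS). Such a peptide pairs with C/EBP or AP-1 family proteins and keeps the pair off DNA. Each of the 3 groups held 2 libraries, and the labels do not say that the 2 came from separate cultures, so the p-values given for other genes measure only the spread between these libraries, which may be technical. Both comparisons with EV share the same 2 control libraries.

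CD36 is a class B scavenger receptor of the cell surface. It takes up long-chain fatty acids and oxidized lipoproteins and passes on the anti-angiogenic signal of thrombospondins through Src family kinases. THBS1 is a large secreted glycoprotein that platelets store in granules and that binds CD36, CD47, integrins and heparan sulfate, and that can activate latent TGF-beta. CD47 is carried by nearly all cells and, besides binding THBS1, engages SIRPA on phagocytes as a signal against engulfment. In blood cells CD36 is known from platelets, monocytes and erythroid precursors, and in acute myeloid leukemia it has been studied for fatty acid uptake by the blasts.

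The sequences just before the start sites of CD36 and THBS1 are shown because the peptides act on proteins that bind DNA, and because both genes differed between the groups. Coordinates are 1-based on GRCh38.p14 and the sequences are those of RefSeq, each the 250 bases before a start site, read 5′ to 3′ on the strand of the gene. Capitals would mark a match to the AP-1 motif TGANTCA, the C/EBP motif TTGCNNAA or a composite of them, TGANGCAA, searched on both strands, and neither window holds one.
CD36, chr7:80638266-80638515, plus strand: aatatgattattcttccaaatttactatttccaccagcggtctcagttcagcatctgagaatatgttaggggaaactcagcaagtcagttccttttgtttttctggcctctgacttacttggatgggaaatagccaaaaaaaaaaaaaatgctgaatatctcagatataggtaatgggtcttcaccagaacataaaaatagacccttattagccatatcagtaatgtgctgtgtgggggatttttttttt
THBS1, chr15:39580829-39581078, plus strand: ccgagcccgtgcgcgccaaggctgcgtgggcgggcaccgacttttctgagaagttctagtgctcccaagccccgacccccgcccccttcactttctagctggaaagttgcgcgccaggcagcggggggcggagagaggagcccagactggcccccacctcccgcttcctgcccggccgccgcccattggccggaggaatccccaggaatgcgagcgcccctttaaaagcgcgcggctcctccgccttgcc

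The CD36 window held 36.0% G and C, and the THBS1 window 69.6%. CD36 has 6 such windows in RefSeq. In 5 of them no motif was found, and the window at chr7:80645999-80646248 held 1 AP-1 match, which is in capitals in its surroundings here.
CD36, AP-1 match: gattctttctgTGACTCAtcagttcattt
The match starts 124 bases before that start site. This window overlaps annotated exon sequence of CD36, as do others of the 6, whereas the CD36 window printed in full overlaps none. Whether the match itself lies in an exon was not examined. The single windows of THBS1 and CD47 held no match to any of the 3 motifs. Over 34943 windows of the same length, 6.59% held the AP-1 motif, 9.06% the C/EBP motif and 2.78% the composite. A match to letters is not a bound site, binding was not measured in these files, and the start site used in KO52 cells cannot be read from gene counts.

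The libraries held between 9862994 and 27663179 counts, with both dnFOS libraries the shallowest. At 3 counts, taken here as the floor, a gene stood at 0.111 to 0.290 CPM (counts per 1000000 after scaling of the library sizes by TMM). PCR copies carried no molecular identifier, so intervals and floors reflect counting error alone. By edgeR's quasi-likelihood test with Benjamini-Hochberg adjustment over all genes tested, 165 genes were called between dnCEBP and EV at an adjusted p under 0.05, which is 1.07% of 15395, with 0.624% higher and 0.448% lower. Between dnFOS and EV 2309 genes were called (15.0%), 1115 higher (7.24%) and 1194 lower (7.76%), and between dnFOS and dnCEBP 2259 (14.7%), with 6.83% higher and 7.84% lower. With library totals in place of TMM the median of all genes between dnFOS and EV moved to 0.10 on the log2 scale, and the split became 1905 higher and 676 lower. Nothing is read from these shares about CD36, THBS1 and CD47, since the same contrasts chose them.

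CD36 (ENSG00000135218) lies on the plus strand of chromosome 7 from 80369575 to 80679277 in GRCh38, with 24 annotated transcripts from 19 start positions. Its count was 76 and 84 in the EV libraries, 254 and 169 with dnCEBP, and 17 and 6 with dnFOS. In CPM this was 3.19 and 3.85 with EV, 9.40 and 8.16 with dnCEBP, and 1.11 and 0.580 with dnFOS. Both dnCEBP libraries lay above both EV libraries, both dnFOS libraries lay below them, and no pair of groups overlapped.

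The mean level of CD36 was 3.52 ± 0.465 CPM in EV, 8.78 ± 0.877 with dnCEBP and 0.844 ± 0.373 with dnFOS (SD, n = 2). The fitted log2 fold change was 1.32 ± 0.23 (SE) with dnCEBP against EV, with a 95% interval from 0.86 to 1.79, or 2.50-fold higher. In dnFOS against EV it was -1.98 ± 0.34, with an interval from -2.67 to -1.28, or 3.94-fold lower. The gap between the peptides was the widest of the 3, with dnFOS at -3.30 ± 0.31 against dnCEBP, or 9.86-fold lower. CD36 stood on opposite sides of the control under the C/EBP and the FOS peptide. In dnCEBP 143 of the tested genes had a larger fitted log2 fold change than CD36, and with dnFOS 92 had a smaller one.

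The dnFOS level of CD36 rests on few reads. The exact binomial 95% intervals of its level were 0.645 to 1.77 CPM and 0.213 to 1.26 CPM in the dnFOS libraries, and these overlap each other. Both counts exceeded the floor. Without dnFOS replicate 1 the log2 fold change against EV became -2.59, and without dnFOS replicate 2 it became -1.66, so these libraries differ over the size of the fall while both are low.

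THBS1 (ENSG00000137801) spans 39581079 to 39599466 on the plus strand of chromosome 15, with 8 annotated transcripts. It was counted 42 and 46 times with EV, 137 and 126 times with dnCEBP and 28 and 23 times with dnFOS. The levels were 1.76 and 2.11 CPM in EV, 5.07 and 6.08 with dnCEBP, and 1.82 and 2.22 with dnFOS. The dnCEBP libraries stood apart above the other 4, whereas the EV and dnFOS libraries overlapped.

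THBS1 averaged 1.93 ± 0.243 CPM in EV, 5.58 ± 0.716 with dnCEBP and 2.02 ± 0.283 with dnFOS (SD, n = 2). Its fitted log2 fold change with dnCEBP against EV was 1.52 ± 0.27 (SE), with a 95% interval from 0.97 to 2.07, or 2.87-fold higher. In dnFOS against EV the value was 0.05 ± 0.32, with an interval from -0.61 to 0.71 that leaves room for a moderate shift either way, and its sign turned to -0.08 without EV replicate 1 or without dnFOS replicate 2. In dnFOS against dnCEBP it was -1.47 ± 0.29, or 2.78-fold lower. Ligand and receptor were thus both higher with dnCEBP than with EV, while with dnFOS CD36 lay below EV and THBS1 overlapped it.

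CD47 (ENSG00000196776) lies on the minus strand of chromosome 3 from 108043094 to 108091862. It had 3048 and 2994 counts with EV, 3892 and 3188 with dnCEBP and 2364 and 1699 with dnFOS. This was 127.9 and 137.1 CPM in EV, 144.0 and 153.9 with dnCEBP, and 153.9 and 164.3 with dnFOS. The EV libraries were the lowest, and the levels of all 6 lay within a narrow band next to those of CD36 and THBS1.

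CD47 averaged 132.5 ± 6.50 CPM in EV, 148.9 ± 6.98 with dnCEBP and 159.1 ± 7.31 with dnFOS (SD, n = 2). The fitted log2 fold change was 0.17 ± 0.08 (SE) with dnCEBP and 0.26 ± 0.09 with dnFOS, each against EV. The dnFOS value became -0.016 once a trend on gene length and GC content was taken out and 0.361 with library totals, so its direction depended on that correction. Between dnFOS and dnCEBP the value was 0.09 ± 0.09, and it became -0.092 with the same trend removed.

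**Figure D1:**
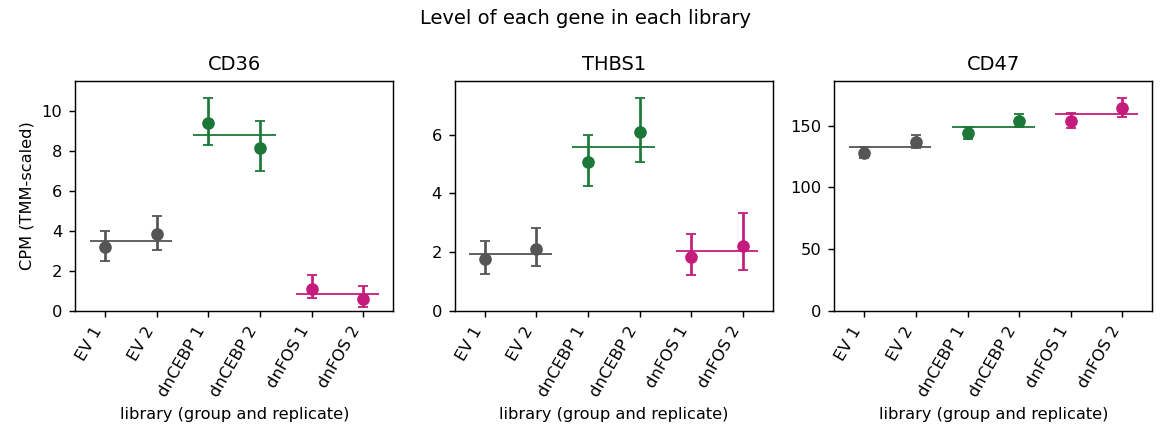
Level of CD36, THBS1 and CD47 in each of the 6 libraries, as TMM-scaled CPM on the vertical axis, which starts at 0 in each panel. Points are libraries, bars are exact binomial 95% intervals of the count and lines are group means. CD36 runs from 0.580 CPM in dnFOS to 9.40 with dnCEBP, THBS1 stands apart only with dnCEBP, and CD47 stays between 127.9 and 164.3 CPM.

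**Figure D2:**
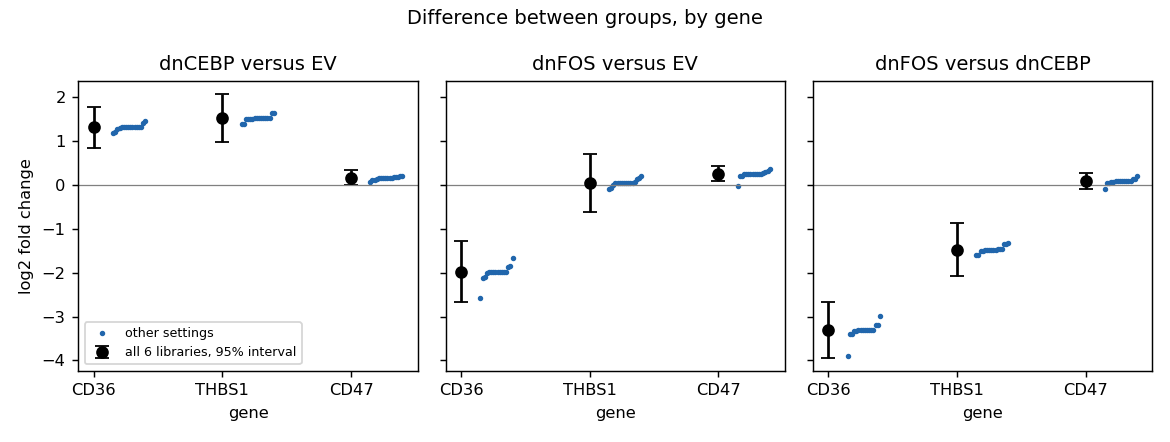
Fitted log2 fold change of each gene in the 3 comparisons, with its 95% interval from the fit to all 6 libraries in black. Blue points are 16 other settings (another scaling, filter, tool or model, or 1 library left out), in ascending order. CD36 lies at 1.32 with dnCEBP and -1.98 with dnFOS, THBS1 at 1.52 and 0.05, and CD47 near 0, where 1 setting puts the dnFOS value at -0.016.

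Levels of different genes were set against each other only per length. Per kilobase of merged exons, CD47 was the highest of the 3 in every group, with 16.1 CPM per kb with EV, 18.1 with dnCEBP and 19.3 with dnFOS. CD36 had 0.323, 0.807 and 0.0775 CPM per kb in the same order, and THBS1 had 0.211, 0.609 and 0.221. CD36 thus stood above its ligand with EV and dnCEBP and below it with dnFOS. The merged exons of CD36 add up to 10880 bases over its many transcripts, against 2365 bases in its longest coding transcript. On the length of that transcript the CD36 level with dnFOS was 0.357 CPM per kb against 0.260 for THBS1 on its own longest coding transcript, so the order of these genes with dnFOS turns with the length used.

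Ratios taken inside a library do not depend on how libraries are scaled. The ratio of CD36 to THBS1, each per kb of merged exons, was 1.52 and 1.54 with EV, 1.56 and 1.13 with dnCEBP, and 0.511 and 0.220 with dnFOS. The EV and dnCEBP libraries overlapped, and the dnFOS libraries were below all others. For each 100 counts of CD47, CD36 had 2.49 and 2.81 counts with EV, 6.53 and 5.30 with dnCEBP, and 0.719 and 0.353 with dnFOS. THBS1 had 1.38 and 1.54 counts per 100 of CD47 with EV, 3.52 and 3.95 with dnCEBP, and 1.18 and 1.35 with dnFOS. Set against CD47, THBS1 was below both EV libraries in both dnFOS libraries, on counts of 28 and 23 reads.

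**Figure D3:**
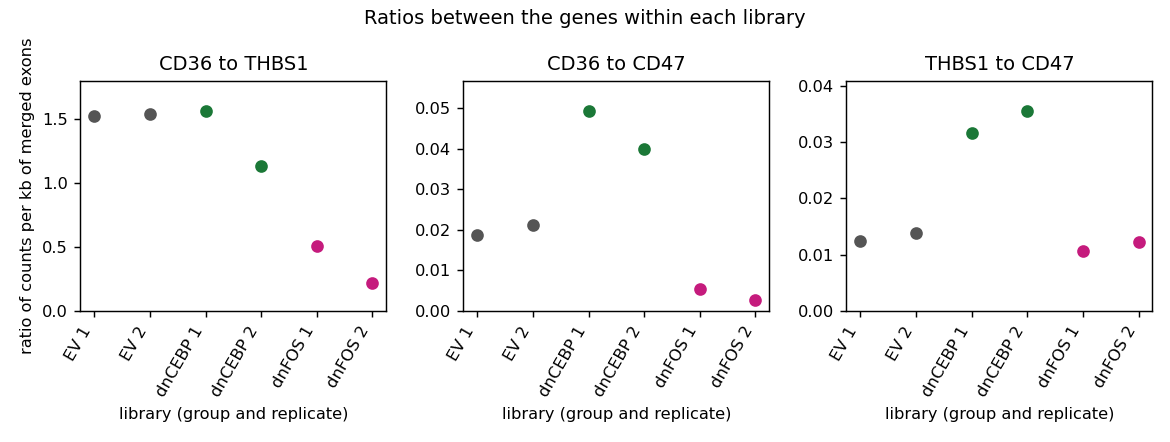
Ratios of CD36 to THBS1, CD36 to CD47 and THBS1 to CD47 inside each library, computed from counts per kb of merged exons, with axes that start at 0. Points are the 6 libraries. The CD36 to THBS1 ratio is 1.13 to 1.56 with EV and dnCEBP and 0.511 and 0.220 with dnFOS.

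The genes around the 3 loci were examined for shared reads and shared change. Of the annotated genes that overlap CD36, GNAT3, SNRPBP1, AC004862.1 and AC073850.1 were all at 0 counts in every library. The nearest tested protein-coding gene before CD36 was GNAI1, a G protein subunit, 143394 bases away. It stood 0.44 ± 0.12 log2 units (SE) from EV (edgeR adjusted p = 0.0802) with dnCEBP and -0.31 ± 0.13 (edgeR adjusted p = 0.114) with dnFOS, neither past the threshold. Between the peptides GNAI1 was called, with dnFOS at -0.75 ± 0.13 against dnCEBP (edgeR adjusted p = 0.000152), the direction of CD36 in that comparison. HGF, the nearest after CD36, lies 1019731 bases away, with -0.33 ± 0.15 with dnCEBP and 0.06 ± 0.16 with dnFOS. Between the peptides HGF was not called, at 0.39 ± 0.16 (edgeR adjusted p = 0.106).

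THBS1 overlaps FSIP1 on the other strand, and the use of strand in counting was not given in the sources used here, so reads of these genes may not have been told apart. FSIP1 had 57 and 45 counts with EV, 83 and 65 with dnCEBP and 28 and 18 with dnFOS. Its fitted log2 difference was 0.48 ± 0.29 (edgeR adjusted p = 0.563) with dnCEBP and -0.32 ± 0.34 (edgeR adjusted p = 0.591) with dnFOS. AC037198.1 and AC037198.2, which also overlap THBS1, held 1 count between them. C15orf53, 400580 bases before THBS1, had 0 and 3 counts with EV, 19 and 14 with dnCEBP and 3 and 1 with dnFOS, without passing the test. GPR176, 199566 bases after THBS1, had 8 and 6 counts with EV, 13 and 20 with dnCEBP and 20 and 5 with dnFOS. Its fitted log2 difference was 1.20 ± 0.70 (edgeR adjusted p = 0.532) with dnCEBP and 1.59 ± 0.72 (edgeR adjusted p = 0.143) with dnFOS. BBX and IFT57, on either side of CD47, had log2 fold changes of 0.10 ± 0.09 and -0.25 ± 0.17 with dnCEBP and 0.12 ± 0.09 and -0.07 ± 0.18 with dnFOS.

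The other genes of the pathway were taken from 10 lists of 170 genes beside the 3 above, of which 129 were tested. The lists share some genes, among them LRP1 and CALR. In dnCEBP 0 of the 129 rose and 5 fell, which is 3.88% beside the 1.07% of all genes tested, and 32 had an unadjusted p under 0.05. DESeq2 called 2 of the 129, both lower. The split was not all one way under other settings, with 4 higher and 9 lower once the trend on GC content and length was taken out, and 2 higher and 6 lower with only the 4 libraries compared. Their median log2 fold change was -0.04, beside -0.002 over all genes. In dnFOS 9 rose and 25 fell, which is 26.4% beside 15.0%, with a median of -0.16 beside 0.004. With library totals 14 rose and 15 fell with dnFOS. In dnFOS against dnCEBP 14 were higher and 21 lower, which is 27.1% beside 14.7%, and with library totals 25 were higher and 16 lower. Single libraries weigh on these counts: with dnCEBP they were 0 without EV replicate 1, 2 without EV replicate 2, 1 without dnCEBP replicate 2 and 9 without either dnFOS library, and with dnFOS they were 17 without EV replicate 1 and 18 without dnFOS replicate 2. Between the peptides 21 were called without dnCEBP replicate 1. Of the 48 calls named below, markers of cell types included, 16 held under every other setting and 32 were lost with some library left out, 25 of them without EV replicate 1 and 20 without dnFOS replicate 2.

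Other thrombospondins were scarce. THBS2 and COMP were at 0 in every library, and THBS4 had between 5 and 24 counts with no call in either comparison with EV. THBS3, which forms pentamers, had 175 and 148 counts with EV, 179 and 85 with dnCEBP and 64 and 42 with dnFOS. It fell with dnFOS by 0.78 ± 0.24 on the log2 scale (edgeR adjusted p = 0.0298, with up to 0.0828 over the settings that left out no replicate), and with dnCEBP its fitted log2 difference was -0.38 ± 0.22 (edgeR adjusted p = 0.523). Of the 2 other family members tested, edgeR called THBS3 alone with dnFOS, which is 50% beside 15.0% of all genes tested. DESeq2 and limma-voom called 0 of the 2.

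Among 10 other tested receptors and receptor partners of thrombospondins, 0 rose and 2 fell with dnCEBP, which is 20% beside 1.07% of all genes. These were LRP1, the endocytic receptor that clears THBS1, and CALR, the chaperone that forms a THBS1 receptor complex with LRP1 at the surface. LRP1 had 254 and 263 counts with EV, 181 and 129 with dnCEBP and 91 and 40 with dnFOS. Its fitted log2 difference was -0.81 ± 0.19 with dnCEBP (edgeR adjusted p = 0.0272, and 0.0903 with DESeq2) and -1.18 ± 0.21 with dnFOS (edgeR adjusted p = 0.00031). CALR fell by 0.37 ± 0.08 with dnCEBP (edgeR adjusted p = 0.0153) and by 0.27 ± 0.08 with dnFOS (edgeR adjusted p = 0.0257, and 0.16 at most over the settings that left out no replicate). The dnCEBP calls of LRP1 and of CALR were each lost without any 1 of the 4 libraries compared. Some calls printed below without a limit were also lost with some library left out. These were MMP2 and ANPEP with dnCEBP, and SDC4, HSPG2, TGFBR1, PTK2, FCER1G, ACADM, ACADVL and PTPRC with dnFOS.

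In dnFOS 4 of these receptors fell and 3 rose, which is 70% called beside 15.0% of all genes tested. Beside LRP1 and CALR, the falls were ITGA2B, the platelet integrin chain that pairs with ITGB3, by 0.83 ± 0.09 (edgeR adjusted p = 2.94e-07), and SDC4, a heparan sulfate proteoglycan, by 0.74 ± 0.17 (edgeR adjusted p = 0.0039). ITGAV, the alpha chain of the vitronectin receptor, rose by 0.65 ± 0.09 (edgeR adjusted p = 1.54e-05). The other rises, named after their values were seen, were ITGA4 at 0.47 ± 0.08 and ITGA6 at 0.52 ± 0.12. ITGB1, the beta chain that pairs with these alpha chains, had a log2 fold change of 0.03 ± 0.09. The calls of LRP1, ITGA2B and ITGAV in dnFOS held under all 16 other settings.

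Among 14 tested binding partners of THBS1 and proteases that cut or bind it, 2 fell with dnCEBP, which is 14.3% beside 1.07%. MMP2, a gelatinase, had 162 and 116 counts with EV, 65 and 57 with dnCEBP and 104 and 52 with dnFOS. It fell with dnCEBP by 1.24 ± 0.24 (edgeR adjusted p = 0.00626) and with dnFOS had a fitted log2 difference of -0.02 ± 0.24 (edgeR adjusted p = 0.967), with a difference of 1.22 ± 0.26 between the peptides (edgeR adjusted p = 0.0013). CTSG, a neutrophil granule protease, fell with dnCEBP by 1.26 ± 0.30 (edgeR adjusted p = 0.0248, and up to 0.115 over the settings that left out no replicate) and with dnFOS by 1.07 ± 0.32 (edgeR adjusted p = 0.0204, and up to 0.0702).

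In dnFOS 7 of the 14 fell and 0 rose, which is 50% called beside 15.0% of all genes tested. TIMP1, an inhibitor of metalloproteinases, fell by 0.72 ± 0.09 (edgeR adjusted p = 1.87e-06), and HSPG2, the proteoglycan perlecan, by 0.97 ± 0.20 (edgeR adjusted p = 0.00269). MMP9, the other gelatinase, had 30 and 24 counts with EV, 25 and 11 with dnCEBP, and 1 and 5 with dnFOS. It fell by 2.26 ± 0.76 with dnFOS (edgeR adjusted p = 0.0419, and up to 0.0927 over the settings that left out no replicate). The size of that fall rests on single libraries, with a log2 fold change of -1.28 without dnFOS replicate 1 and -4.06 without dnFOS replicate 2. TIMP1 kept its call under all 16 other settings.

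THBS1 can switch on the TGF-beta pathway outside the cell. Of 15 tested genes of TGF-beta activation and signalling, 1 fell with dnCEBP, which is 6.67% beside 1.07% of all genes. This was SKI, a repressor of SMAD proteins, by 0.73 ± 0.17 (edgeR adjusted p = 0.0254, and 0.0564 at most over the settings that left out no replicate). In dnFOS TGFBR1, the type I receptor, rose by 0.47 ± 0.10 (edgeR adjusted p = 0.00175) and SMAD4, the shared SMAD, by 0.35 ± 0.11 (edgeR adjusted p = 0.0233, and up to 0.0883). SMAD7, the inhibitory SMAD, fell by 0.64 ± 0.18 with dnFOS (edgeR adjusted p = 0.0178, and up to 0.0612). The share of these 15 genes called with dnFOS was 20%, beside 15.0% of all genes tested.

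Of 21 other scavenger receptors on the list 8 were tested, and 1 fell with dnCEBP (LRP1), which is 12.5% beside 1.07% of all genes. With dnFOS LRP1 fell and SCARB2 rose, which is 25% beside 15.0%. Between the peptides edgeR called 2 higher with dnFOS and 1 lower, which is 37.5% beside 14.7%. DESeq2 called 1 of the 8 there and limma-voom 3. The lower one by edgeR, STAB1, was named after its values were seen. Its log2 fold change was 0.44 ± 0.11 with dnCEBP (edgeR adjusted p = 0.0802) and -0.28 ± 0.12 with dnFOS (edgeR adjusted p = 0.121). In dnFOS against dnCEBP it was -0.71 ± 0.12 (edgeR adjusted p = 0.000299). SCARB1, the high density lipoprotein receptor, had a fitted log2 difference of -0.21 ± 0.15 with dnCEBP (edgeR adjusted p = 0.607) and 0.04 ± 0.15 with dnFOS (edgeR adjusted p = 0.905). SCARB2, a lysosomal member of the same class, had 0.03 ± 0.10 with dnCEBP and rose with dnFOS by 0.35 ± 0.10 (edgeR adjusted p = 0.0228, and up to 0.072 over the settings that left out no replicate). The difference between CD36 and these relatives was not tested.

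The 23 tested partners of CD36 in signalling held 0 calls with dnCEBP by edgeR, beside 1.07% of all genes tested. For a list of this size 0 is near that share. DESeq2 and limma-voom also called 0, and 4 had an unadjusted p under 0.05. In dnFOS 4 fell and 0 rose, which is 17.4% called beside the 15.0% of all genes tested. PTK2, the focal adhesion kinase, had 93 and 85 counts with EV, 137 and 126 with dnCEBP and 29 and 14 with dnFOS. It fell with dnFOS by 1.23 ± 0.30 (edgeR adjusted p = 0.00532), and with dnCEBP had a log2 fold change of 0.51 ± 0.24 that was not called (edgeR adjusted p = 0.392). FCER1G, an adaptor chain with an activation motif, fell with dnFOS by 0.88 ± 0.22 (edgeR adjusted p = 0.00539), VAV1, an exchange factor, by 0.42 ± 0.09 (edgeR adjusted p = 0.00131), and LYN, a Src family kinase, by 0.27 ± 0.09 (edgeR adjusted p = 0.032, and up to 0.154 over the settings that left out no replicate).

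For the lipid side of CD36, 0 of 18 tested genes of fatty acid uptake and storage, 0 of 19 of fatty acid oxidation and 0 of 13 of PPAR and LXR regulation and sterol efflux were called with dnCEBP by edgeR. The share of all genes called with dnCEBP was 1.07%, so 0 in lists of this size is near that share. DESeq2 and limma-voom called 0 as well, and 3, 2 and 4 genes in that order had an unadjusted p under 0.05. In dnFOS the shares called were 16.7%, 21.1% and 15.4%, beside 15.0% of all genes tested. PLIN2, which coats lipid droplets, had 3570 and 2947 counts with EV and 1041 and 653 with dnFOS, and fell with dnFOS by 1.12 ± 0.09 (edgeR adjusted p = 3.76e-10), a call that held under all 16 other settings. MGLL, a monoacylglycerol lipase, fell by 0.51 ± 0.17 (edgeR adjusted p = 0.0433, and up to 0.143 over the settings that left out no replicate), and ACSL3, an acyl-CoA synthetase, rose by 0.40 ± 0.09 (edgeR adjusted p = 0.00297, and up to 0.204).

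Of the oxidation genes 3 fell and 1 rose with dnFOS. The medium-chain dehydrogenase ACADM rose by 0.43 ± 0.09 (edgeR adjusted p = 0.00217). The short-chain enzyme ACADS fell by 0.74 ± 0.22 (edgeR adjusted p = 0.0193, and up to 0.119 over the settings that left out no replicate), the very-long-chain enzyme ACADVL fell by 0.42 ± 0.10 (edgeR adjusted p = 0.00572), and the thiolase ACAA2 by 0.32 ± 0.11 (edgeR adjusted p = 0.0385, and up to 0.151). The called enzymes thus differed in direction, at a share of 21.1% beside 15.0% of all genes tested. Each of these calls was lost without dnFOS replicate 2. NR1H2, an LXR receptor, fell by 0.57 ± 0.17 (edgeR adjusted p = 0.0189, and up to 0.148) and its target MYLIP by 0.35 ± 0.11 (edgeR adjusted p = 0.0354, and up to 0.13). PPARG, a nuclear receptor known to act on CD36 in macrophages, was at 0 counts in every library, which allows up to 0.111 to 0.290 CPM.

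On the CD47 side, SIRPA, its partner on phagocytes, had 63 and 64 counts with EV, 52 and 43 with dnCEBP and 29 and 31 with dnFOS, with log2 fold changes of -0.48 ± 0.31 (edgeR adjusted p = 0.583) and -0.22 ± 0.33 (edgeR adjusted p = 0.715). Of 11 other tested genes of this axis, 2 fell with dnCEBP (18.2% beside 1.07% of all genes), which were again LRP1 and CALR. In dnFOS these fell too, as did PTPN6, the phosphatase that SIRPA recruits, by 0.36 ± 0.09 (edgeR adjusted p = 0.00536, and up to 0.124 over the settings that left out no replicate). SIGLEC10, an inhibitory receptor for CD24, rose by 0.44 ± 0.14 (edgeR adjusted p = 0.0316, and up to 0.0682). The share of these 11 genes called with dnFOS was 36.4%, beside 15.0% of all genes tested.

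**Figure D4:**
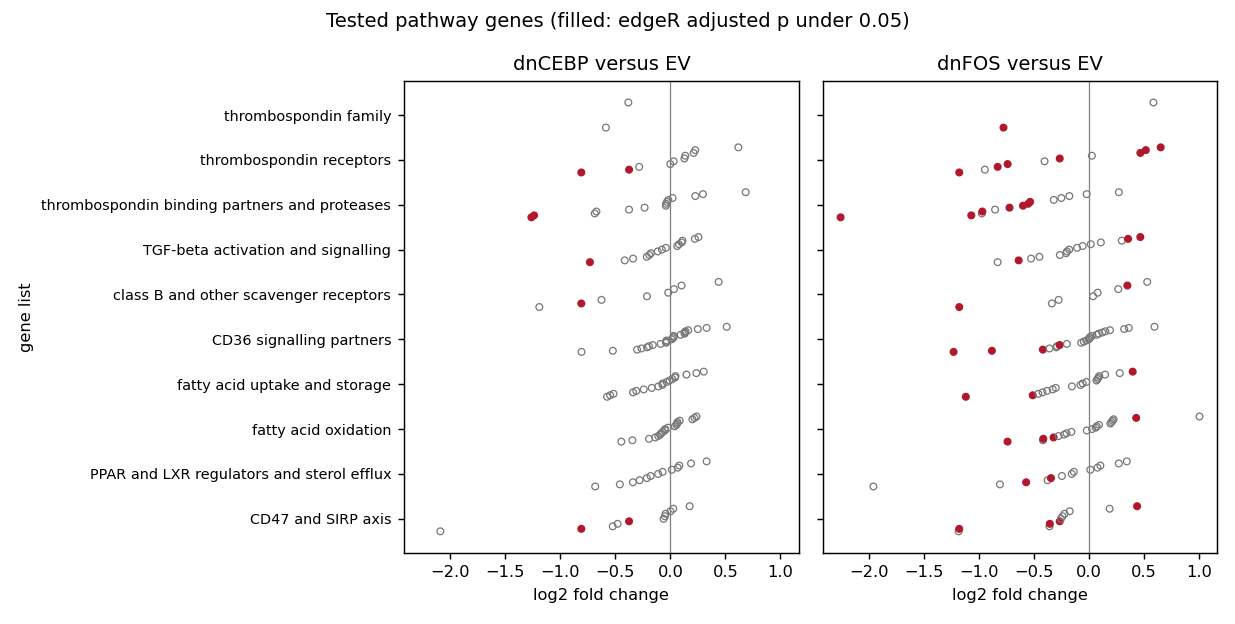
Log2 fold change of every tested gene on the 10 pathway lists, without CD36, THBS1 and CD47, for dnCEBP (left) and dnFOS (right) against EV. Each circle is a gene, filled where edgeR's adjusted p was under 0.05, in ascending order within a list, and genes on several lists are drawn in each. In dnCEBP 5 genes are called, all lower, and with dnFOS 34, of which 25 are lower.

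Markers of the cell types that carry CD36 or THBS1 were examined beside them. The cells held markers of myeloid blasts, with all 9 tested, a summed level of 1227 to 1384 CPM in EV and dnCEBP and 1100 and 1140 with dnFOS. In dnCEBP 2 of the 9 were called, both lower, which is 22.2% beside 1.07% of all genes tested. The granule enzyme MPO fell by 1.89 on the log2 scale, and the surface peptidase ANPEP fell by 0.37. In dnFOS 3 of the 9 were called, all lower, which is 33.3% beside 15.0%, with a median log2 fold change of -0.22 over the list. MPO fell by 0.56 (edgeR adjusted p = 0.000273), ANPEP by 0.58 (edgeR adjusted p = 4.36e-05) and PTPRC, the pan-leukocyte phosphatase CD45, by 0.33 (edgeR adjusted p = 0.00663). In a bulk sample, fewer cells of a type and less RNA per cell cannot be told apart.

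Of 14 megakaryocyte and platelet markers 7 were tested. None was called with dnCEBP by edgeR, DESeq2 or limma-voom, beside 1.07% of all genes called by edgeR. At an unadjusted p under 0.05 there were 4, all higher. ITGA2B was the only one called with dnFOS by edgeR, which is 14.3% of the 7 beside 15.0% of all genes tested. All 7 had a positive log2 fold change with dnCEBP, from 0.21 for ITGA2B to 1.05 for PPBP, with a median of 0.68. In dnFOS 6 of the 7 were negative, with a median of -0.40, and PPBP was at 0.73. The summed level was 202 and 190 CPM in EV, 250 and 214 with dnCEBP and 117 and 108 with dnFOS, most of it ITGA2B. GP1BB and TREML1 were at 0 in every library. PF4 had 2 to 7 counts per library and GP9 had 0 to 10. CD36 and THBS1 are themselves genes of platelets, and the part of these markers in their levels was not tested.

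**Figure D5:**
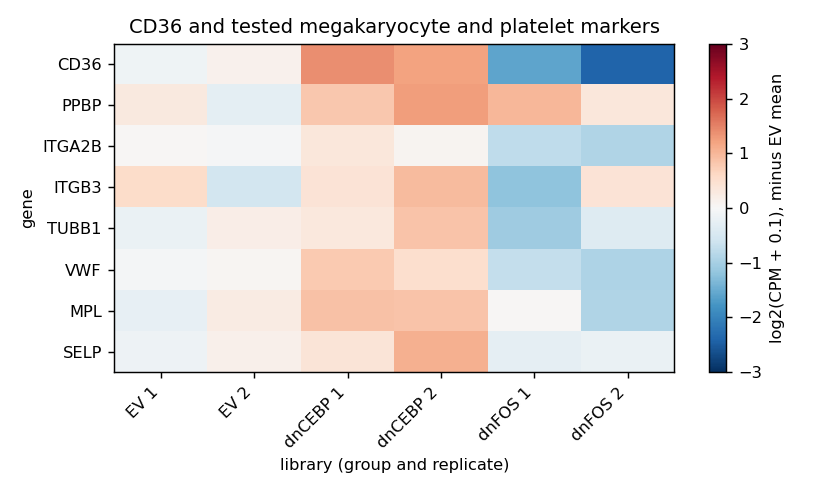
CD36 and the 7 tested megakaryocyte and platelet markers in each library, as log2(CPM + 0.1) minus the mean of the EV libraries, on a colour scale from blue (lower) to red (higher). CD36 has the lowest values with dnFOS, and of the markers ITGA2B alone was called there.

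Erythroid markers gave 8 tested genes of 16. In dnCEBP 0 were called by edgeR, DESeq2 or limma-voom, beside 1.07% of all genes called by edgeR, and 0 had an unadjusted p under 0.05. With dnFOS GATA1, the erythroid and megakaryocytic transcription factor, fell by 1.41, from 182 and 134 counts with EV to 36 and 30. GATA1 was the only one called with dnFOS, which is 12.5% of the 8 beside 15.0% of all genes tested. Of the 8, 6 had a positive log2 fold change with dnCEBP, with a median of 0.17. With dnFOS 6 had a negative one, with a median of -0.78. These sets of 6 were not the same genes. KLF1 (-0.25) and EPOR (-0.40) were negative with dnCEBP, while ALAS2 (0.11) and TFRC (0.15) were positive with dnFOS. The summed level of the erythroid list was 668 to 698 CPM with EV, 721 to 777 with dnCEBP and 746 to 749 with dnFOS, most of it TFRC, and HBA2 and HBG1 were at 0 in every library. Of 13 monocyte and macrophage markers 5 were tested, and CD163 was at 0. Their summed level was 94.1 to 103 CPM with EV, 89.7 to 98.3 with dnCEBP and 85.2 to 93.6 with dnFOS, most of it LYZ. In dnCEBP none of the 5 was called by any of the same tools, beside 1.07% of all genes, with 2 at an unadjusted p under 0.05. In dnFOS ITGAM rose by 0.91 while LYZ fell by 0.44 and FCN1 by 2.42, with FCN1 at 43 and 15 counts with EV and 5 and 1 with dnFOS. These calls are 60% of the 5 tested, beside 15.0% of all genes. The FCN1 call was lost with DESeq2 and limma-voom (adjusted p of up to 0.0875), and its log2 fold change was -1.56 without EV replicate 1. Endothelial and stromal markers, of which 3 of 11 were tested, held no call by edgeR, DESeq2 or limma-voom in either comparison with EV. The shares of all genes called were 1.07% with dnCEBP and 15.0% with dnFOS. In each comparison with EV 1 of the 3 had an unadjusted p under 0.05, and CDH5, CLDN5, DCN and LUM were at 0. Of the B and T cell markers 5 of 10 were tested, and CD4 fell by 0.58 and CD3D by 0.28 with dnFOS, with MS4A1 at 0. The share called there was 40%, beside 15.0% of all genes. The CD3D call had an adjusted p of up to 0.145 over the settings that left out no replicate. In dnCEBP none of these 5 was called by the same tools, beside 1.07% of all genes, with 2 at an unadjusted p under 0.05. The part of these markers in the levels of CD36 and THBS1 was not tested.

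The genes most like CD36 and THBS1 over the 6 libraries were found among 12753 genes with a symbol and a mean of at least 1 CPM. Likeness was the root mean square difference of centred log2 CPM, a description of these 6 libraries that the group differences of CD36 and THBS1 largely set. For CD36 the nearest were SLITRK6 (0.316), AL390719.1 (0.394), AC020571.1 (0.454), NR5A2 (0.459) and AC006369.1 (0.493). NR5A2, a nuclear receptor, had 264 and 219 counts with EV, 452 and 361 with dnCEBP and 56 and 32 with dnFOS. SLITRK6, a transmembrane protein of neurons, had 30 and 26, then 67 and 53, then 8 and 1 counts in the same order. In CPM both stood above EV with dnCEBP and below it with dnFOS in every library.

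For THBS1 the nearest were STXBP5-AS1 (0.197), RSAD2 (0.253), CLDN16 (0.258), CCR4 (0.283) and AC008105.3 (0.286). RSAD2, an interferon-induced antiviral enzyme, had 306 and 291 counts with EV, 647 and 555 with dnCEBP and 187 and 116 with dnFOS, which was 13.1, 25.4 and 11.7 CPM on average. STXBP5-AS1, an antisense RNA that cannot be told from its partner gene without strand, had 25 and 36 counts with EV, 81 and 104 with dnCEBP and 19 and 13 with dnFOS. CCR4, a chemokine receptor, had 12 and 17, then 37 and 43, then 14 and 9 counts. None of the 5 genes nearest to THBS1 is among the 5 nearest to CD36.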

How the data were processed

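The authors deposited raw counts per gene for 6 libraries, as whole numbers for 60612 gene IDs with no normalization. Per the labels, RNA was depleted of ribosomal RNA, amplified with 15 PCR cycles and read as paired 75-base reads. The submitters' processing notes name Trimmomatic, HISAT2, featureCounts, Subread and hg38. The use of strand and the treatment of shared reads are not given in the sources used here. IDs were matched to GENCODE 29 on GRCh38 (58394 matched), and start sites came from RefSeq.

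Groups and replicate numbers came from the titles. Counts were tested with edgeR 4.0.16 in R 4.3.3, after filterByExpr (minimum count 10), with TMM scaling and a robust quasi-likelihood fit to all 6 libraries, leaving 3 residual degrees of freedom. P-values were two-sided and adjusted by Benjamini-Hochberg over 15395 genes. Each standard error was the size of the log2 fold change over the square root of its F statistic. A prior count of 2 was used for log2 CPM, and CPM used TMM-scaled sizes. DESeq2 1.42.0, limma 3.58.1 and other settings were alternatives, and the scripts were tested on simulated data. Replicates differed beyond sampling noise in each group.

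The genes followed and all gene lists were chosen with earlier results of these data known. Besides fixed names, the text names per list and comparison up to 4 called genes with the largest change, the 5 genes nearest in profile, and overlapping and neighbouring genes.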

Additional observations from a re-analysis of the deposited data

How the results depend on the processing

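With 16 other settings, CD36 kept its direction in all 3 comparisons, and THBS1 kept its direction in both comparisons with dnCEBP. The CD47 value in dnCEBP against EV became 0.076 once the trend on GC content and length was removed, in dnFOS against EV -0.016 with that trend removed and 0.361 with library totals, and in dnFOS against dnCEBP -0.092 and 0.216 under the same settings. The cause was not tested. Genes called in dnCEBP numbered 268 with the trend removed, 255 with no low-count filter and 297 with only the 4 libraries compared. Pathway genes called in dnCEBP numbered 2 with DESeq2, 13 with the trend removed and 8 with only the 4 libraries compared. Deviations of same-numbered libraries correlated at 0.017 to 0.088 over all genes tested. This cannot show whether some genes shared a batch, so whether replicate numbers pair the libraries is not known. With the replicate number as a block 488 genes and 13 pathway genes (2 higher, 11 lower) were called in dnCEBP, beside 165 and 5 without it.

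Leaving out 1 library at a time, genes called ran from 33 to 314 in dnCEBP against EV (81 without EV replicate 1, 53 without EV replicate 2, 257 and 33 without dnCEBP replicates 1 and 2, 311 and 314 without dnFOS replicates 1 and 2), from 972 to 2426 in dnFOS against EV (lowest without dnFOS replicate 2, and 1059 without EV replicate 1), and from 1182 to 2262 in dnFOS against dnCEBP (lowest without dnFOS replicate 2, and 1349 without dnCEBP replicate 1). Pathway genes ran from 0 to 9, from 17 to 37, and from 21 to 34. The lowest pathway counts came without EV replicate 1, without EV replicate 1 and without dnCEBP replicate 1. The log2 fold change of CD36 ran from 1.192 to 1.456 in dnCEBP against EV, from -2.585 to -1.660 in dnFOS against EV and from -3.909 to -2.984 between the peptides, with the outer values of the latter comparisons without a dnFOS library. Where a group is left with 1 library, that library is assumed to vary like the others. Depth limits CD36 in dnFOS, where it had 17 and 6 counts.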
